A study of Mus musculus with 15 samples.

Results

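Matrix metalloproteases (Mmp genes), the related secreted ADAMTS proteases (Adamts genes) and the tissue inhibitors of metalloproteases (Timp genes) were followed in mouse embryonic fibroblasts that had been turned towards osteoblasts with or without beta-actin. The genes were chosen by symbol alone: of 46603 gene IDs counted, 46 carried a symbol of these families, with 23 Mmp, 19 Adamts and 4 Timp genes. RNA was sequenced from 15 libraries in 5 groups of 3. The fibroblasts, from BALB/c embryos of 10.5 days, were knockout (KO, β-actin-/-), heterozygous (HET, β-actin+/-) or wild type (WT, β-actin+/+) for the gene Actb. KO, HET and WT cells were read at day 14, and KO and WT cells also at day 4, counted from the change of medium. The cells came from another laboratory, and those of every group had been grown to confluence in DMEM on Matrigel, a basement membrane extract, and then kept in OsteoMax-XF, an osteogenic induction medium, with the glucocorticoid dexamethasone and the adenylate cyclase activator forskolin. No HET library of day 4 and no library from before the change of medium was analysed here. The labels do not say how many embryos or clones stand behind a genotype, or whether the replicates of a group were separate cultures, so the p-values below measure only the spread between these libraries, which may be technical.

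The Mmp enzymes are zinc endopeptidases, made as inactive precursors, that cut collagens, gelatins and other proteins of the extracellular matrix. ADAMTS proteases carry thrombospondin repeats, and their best known substrates are procollagens and the large proteoglycans aggrecan and versican. The Timp proteins bind the active site of these enzymes and block it. In bone, collagenase from osteoblasts and hypertrophic chondrocytes takes part in removing the collagen matrix of growing and remodelled bone.

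The libraries held 19.9 M to 47.5 M counts. Levels are given in CPM, the usual read count normalised to library size, with library sizes scaled by TMM. Actb, the deleted gene, averaged 44.7 CPM in KO, 1522 CPM in HET and 2996 CPM in WT cells at day 14, and 134 CPM in KO and 1181 CPM in WT cells at day 4. HET replicate 2 stood apart from the rest of its group: a chi-square comparison of counts gave 45.6 and 45.8 per degree of freedom against HET replicates 1 and 3, and 2.81 between replicates 1 and 3. The WT libraries of day 14 also differed, with 9.02 and 17 for replicate 1 against replicates 2 and 3, and 4.73 between replicates 2 and 3. KO cells of both days and WT cells of day 4 gave 2.15 to 2.9. The cells are labelled as osteoblasts made by chemical reprogramming. Col1a1, the first chain of type I collagen, averaged 107 to 1610 CPM over the 5 groups, Spp1, the bone matrix protein osteopontin, 1461 to 5068 CPM, Alpl, the alkaline phosphatase of mineralising cells, 3.39 to 128 CPM, and Runx2, an early osteoblast factor, 20.6 to 71.2 CPM. The list of 9 osteoblast genes summed to 2740 to 2830 CPM in KO, 3140 to 3370 CPM in HET and 2530 to 2660 CPM in WT cells at day 14. At day 4 it summed to 5860 to 5940 CPM in KO and 3720 to 3740 CPM in WT cells. Most of this was Spp1 and Col1a1. Alpl ran the other way, with 32.0 CPM in KO, 8.29 CPM in HET and 128 CPM in WT cells at day 14. At day 4 Alpl averaged 3.39 CPM in KO and 22.0 CPM in WT cells. Of the 9 osteoblast genes, Sp7 and the later markers Ibsp, Bglap and Dmp1 summed to at most 4, 3, 25 and 4 counts in any group. Phex, the remaining gene of the list, averaged 11.45 CPM in KO and 1.01 CPM in WT cells at day 4. At day 14 Phex averaged 0.11 CPM in KO, 0.36 CPM in HET and 0.11 CPM in WT cells. Other cell types are known sources of these proteases. The leukocyte gene Ptprc summed to at most 17 counts in any group. The macrophage gene Adgre1 was at 0 in KO cells of both days and in WT cells of day 4. The neutrophil genes Elane and Mpo summed to at most 6 and 5 counts in any group, whereas S100a8 averaged 36.9 ± 1.19 CPM in KO cells of day 14 and 10.4 ± 1.87 CPM in WT cells of day 4 (SD, n = 3 each). The list of 10 macrophage and osteoclast genes summed to 119 to 126 CPM in KO, 141 to 176 CPM in HET and 36.7 to 39.0 CPM in WT cells at day 14. At day 4 it summed to 83.8 to 87.2 CPM in KO and 79.4 to 83.9 CPM in WT cells. Most of this was Cd14, which averaged 81.6 CPM in KO, 146 CPM in HET and 29.0 CPM in WT cells of day 14. The 5 smooth muscle genes summed to 501 to 523 CPM in KO, 85.7 to 102 CPM in HET and 38.8 to 43.4 CPM in WT cells at day 14. At day 4 they summed to 2320 to 2340 CPM in KO and 1.30 to 1.45 CPM in WT cells. The 6 chondrocyte genes summed to 28.1 to 32.3 CPM in KO, 20.3 to 20.6 CPM in HET and 3.62 to 4.02 CPM in WT cells at day 14, and to 22.3 to 24.3 CPM in KO and 5.18 to 7.95 CPM in WT cells at day 4. Sox9 averaged 30.5 CPM in KO, 20.1 CPM in HET and 1.77 CPM in WT cells at day 14. Col2a1 and Comp ran the other way at day 14, with 0.213 and 0.0578 CPM in KO, 0.275 and 0.0986 CPM in HET and 1.57 and 0.388 CPM in WT cells. The 5 adipocyte genes summed to 415 to 433 CPM in KO, 222 to 346 CPM in HET and 13.3 to 17.5 CPM in WT cells at day 14. At day 4 they summed to 81.8 to 85.6 CPM in KO and 16.2 to 19.0 CPM in WT cells. Most of this was Fabp4, which averaged 419.5 CPM in KO, 261.9 CPM in HET and 13.75 CPM in WT cells at day 14. Pparg averaged 2.999 CPM in KO, 1.803 CPM in HET and 1.909 CPM in WT cells at day 14. In KO cells of day 4 Fabp4 averaged 77.71 CPM and Pparg 5.425 CPM, so Fabp4 rose and Pparg fell between the days. Adipoq and Cidec had no count in HET cells of day 14 or in KO and WT cells of day 4. At least 1 CPM on average was reached by 2 or 3 of the 10 macrophage and osteoclast genes, 0 to 4 of the smooth muscle genes, 1 or 2 of the chondrocyte genes and 2 of the adipocyte genes in each group. The part of these lists in the results below was not tested.

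**Figure D1:**
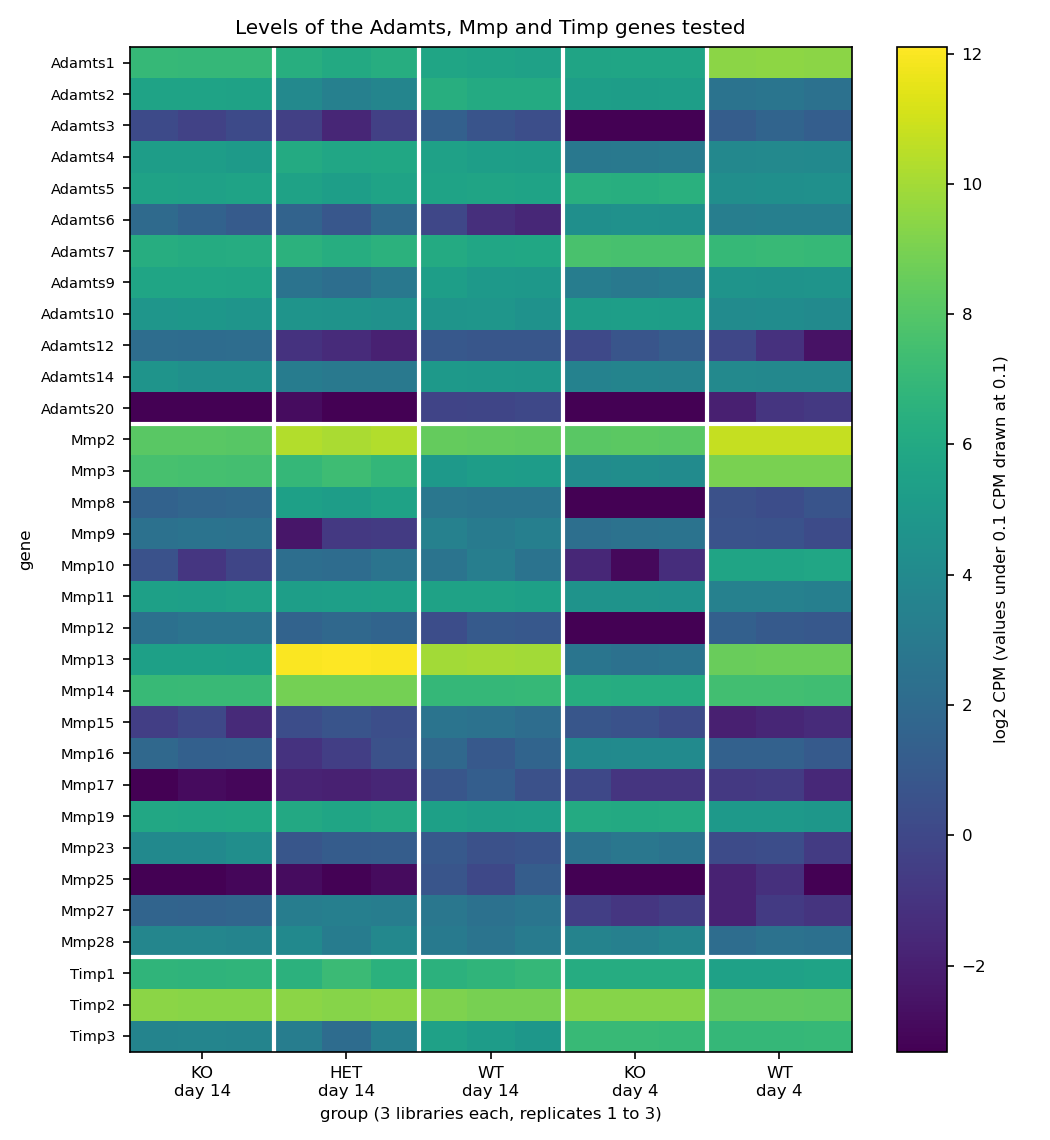
Level of each of the 32 tested genes (rows, grouped by family) in each of the 15 libraries (columns, 3 per group), as log2 CPM in colour with values under 0.1 CPM drawn at 0.1. Mmp13 is brightest in HET and WT cells of day 14 (4162 and 1002 CPM on average), Mmp2 and Adamts1 in WT cells of day 4 (1698 and 692 CPM), and Mmp8 and Mmp12 are darkest in KO cells of day 4.

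Expression was high enough to test in 32 of the 46 genes: 17 Mmp, 12 Adamts and 3 Timp genes, of 15296 genes tested in all. The other 14 are Mmp1a, Mmp1b, Mmp7, Mmp20, Mmp21, Mmp24, Adamts8, Adamts13, Adamts15, Adamts16, Adamts17, Adamts18, Adamts19 and Timp4. Adamts16 reached 48 counts, summed over the 3 KO libraries of day 4. The highest sums of the rest were 13 counts for Mmp1a and 10 for Mmp1b in WT cells of day 4, and 9 for Mmp24 in KO cells of day 14. In WT cells of day 14 the highest sums were 12 counts for Adamts17, 8 for Timp4, 5 for Adamts18, 3 each for Adamts8 and Adamts13, 2 for Adamts15 and 1 each for Mmp7 and Mmp21. Mmp20 had 2 counts in HET cells of day 14, and Adamts19 had none in any group. A mean of at least 10 CPM in 1 group or more was reached by 23 genes, 8 more peaked between 1 and 10 CPM, and Adamts20 stayed under 1 CPM. Genes were called changed at an adjusted p under 0.05 in the quasi-likelihood test of edgeR, after Benjamini-Hochberg adjustment over all genes tested, and counted again where the change was also at least 2-fold. Sizes of change are log2 fold changes ± SE, so that 1 stands for a 2-fold difference.

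Summed over the family, Mmp transcripts were most abundant in HET cells of day 14 and least abundant in KO cells of day 4. The Mmp sum was 809 ± 9.78 CPM in KO, 6187 ± 47.8 CPM in HET and 1639 ± 25.1 CPM in WT cells at day 14. At day 4 the Mmp sum was 523 ± 1.55 CPM in KO and 2878 ± 6.66 CPM in WT cells (SD, n = 3 libraries per group here and below). Which gene made up that sum differed between groups. Mmp13 gave 5.33 ± 0.12% of Mmp CPM in KO, 67.2 ± 1.36% in HET and 61.2 ± 0.681% in WT cells at day 14. At day 4 its share was 1.11 ± 0.10% in KO and 13.5 ± 0.305% in WT cells. Mmp2 gave the largest share in KO cells, with 35.1 ± 0.40% at day 14 and 55.3 ± 0.351% at day 4. It also gave the largest share in WT cells of day 4, with 59.0 ± 0.458%. At day 14 the Mmp2 share was 20.1 ± 1.4% in HET and 20.4 ± 0.808% in WT cells. Adamts transcripts summed to 445 ± 8.36 CPM in KO, 329 ± 32.9 CPM in HET and 370.2 ± 29.9 CPM in WT cells at day 14. They summed to 467 ± 2.27 CPM in KO and 935 ± 11.8 CPM in WT cells at day 4. The Timp sum varied least, with 789 ± 16.8 CPM in KO, 776 ± 9.24 CPM in HET and 660.5 ± 31.6 CPM in WT cells at day 14. Day 4 Timp sums were 846 ± 4.54 CPM in KO and 487 ± 1.71 CPM in WT cells. These are bulk libraries, in which fewer cells that express a gene and less of its RNA per cell cannot be told apart.

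Counted over the 32 tested genes, changes were frequent, as they were over all genes. KO against WT at day 14 called 81.2% of the 32, where 63.1% of all genes tested were called. It had 12 higher and 14 lower, against 30.9% and 32.2% of all genes. Changes of at least 2-fold took 40.6% of the 32 and 21.2% of all. The median absolute log2 fold change was 0.84 for the 32 genes and 0.46 for all.

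HET against WT called 81.2% of the 32 genes, against a background of 58.3%. It had 14 higher and 12 lower, where 28.3% and 29.9% of all genes were called. At 2-fold or more the shares were 56.2% and 18.8%, and the median absolute change was 1.79 for the 32 genes and 0.42 for all. KO against HET called 65.6%, against 59.5% of all genes. It had 12 higher and 9 lower, against 29.4% and 30.1% of all genes, and 43.8% against 18.9% at 2-fold. These 3 comparisons at day 14 share libraries, so their counts are not independent. Without HET replicate 2 the number of the 32 genes called was 27 for HET against WT, 18 of them at 2-fold. For KO against HET it was 22, 13 of them at 2-fold. Over all genes, that setting called 10083 of 15787 for HET against WT and 9554 of 15787 for KO against HET. All genes were not counted at 2-fold in that setting.

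KO against WT at day 4 called 90.6% of the 32 genes, against 69.5% of all. It had 15 higher and 14 lower, against 35.7% and 33.8% of all genes. At 2-fold the shares were 78.1% and 28.4%. The median absolute change was 1.74, the same with Adamts3 and Adamts20 at their bounds, against 0.58 over all genes. Genes that pass the expression filter through 1 high group are among the tested ones, here and over all genes. These shares therefore describe the 32 genes and do not show that the families stand apart.

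Day 14 against day 4 had 17 higher and 9 lower in KO cells, 81.2% against a background of 60.9%. Over all genes 30.8% were higher and 30.1% lower, and 20.7% were called at 2-fold, against 56.2% of the 32. In WT cells there were 21 higher and 8 lower, 90.6% against 74.6% of all genes, of which 39.7% were higher and 34.9% lower. At 2-fold the shares in WT cells were 68.8% and 34.2%. The changes of the 2 genotypes often differed. The interaction of genotype and day, which is the change between the days in KO less that in WT cells, passed for 27 of the 32 genes, 84.4% against a background of 64.7%. It was positive for 13 and negative for 14, where 30.7% and 34.0% of all genes were called, and at 2-fold it took 65.6% of the 32 and 33.0% of all.

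**Figure D2:**
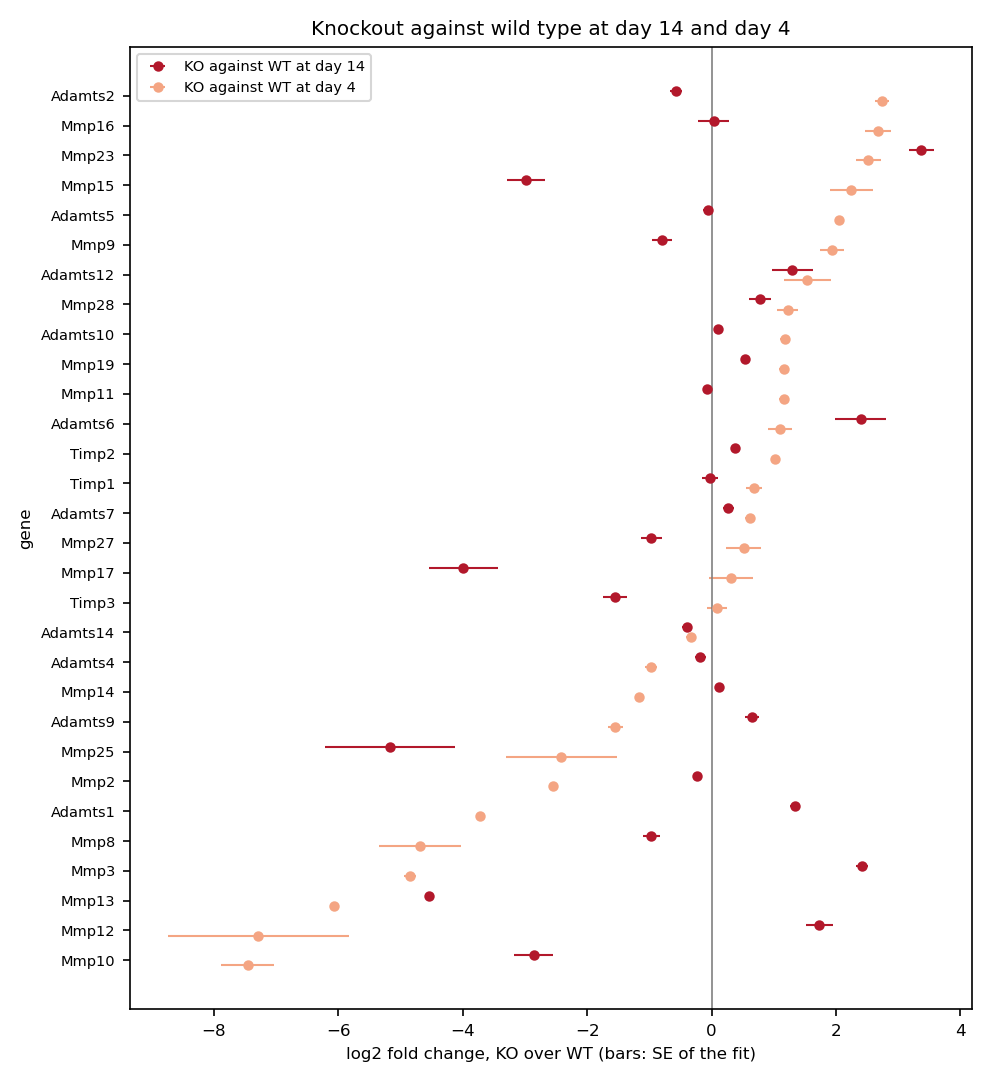
Log2 fold change of KO over WT (points) with its SE (bars) for 30 of the 32 tested genes at day 14 and at day 4, ordered by the value at day 4. Adamts3 and Adamts20 are left out because KO cells of day 4 had no count, and the day 4 point of Mmp12 and the day 14 point of Mmp25 rest on 1 and 3 counts in KO cells. Mmp3, Mmp12 and Adamts1 lie on opposite sides of 0 at the 2 days, and Mmp13 and Mmp10 lie below 0 at both.

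A run of 10 Mmp genes lies on chromosome 9 of GRCm38, at chr9:7272514-7699585, a stretch of 427 kb with no other protein-coding gene inside. In map order they are Mmp13, Mmp12, Mmp1b, Mmp3, Mmp1a, Mmp10, Mmp8, Mmp27, Mmp20 and Mmp7, all on the plus strand but Mmp1b. They include the collagenases (Mmp13, Mmp8 and the rodent counterparts of interstitial collagenase Mmp1a and Mmp1b), the stromelysins (Mmp3 and Mmp10), the macrophage elastase Mmp12, matrilysin Mmp7 and enamelysin Mmp20. Of these, 6 could be tested, and the 150 bases before the start of each, on the plus strand of GRCm38.p6 as given by RefSeq, are shown because several of these genes had the widest gaps between groups. Capitals mark the AP-1 element (TGAGTCA, or TGACTCA on the other strand), which FOS and JUN proteins bind, and the RUNX element (AACCACA, or TGTGGTT), which the osteoblast factor RUNX2 binds. The stretches are chr9:7272364-7272513, chr9:7347224-7347373, chr9:7445672-7445821, chr9:7502192-7502341, chr9:7558279-7558428 and chr9:7571246-7571395 in the order printed.
Mmp13: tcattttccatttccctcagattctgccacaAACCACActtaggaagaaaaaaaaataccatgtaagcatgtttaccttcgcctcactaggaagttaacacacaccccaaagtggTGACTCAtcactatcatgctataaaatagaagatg
Mmp12: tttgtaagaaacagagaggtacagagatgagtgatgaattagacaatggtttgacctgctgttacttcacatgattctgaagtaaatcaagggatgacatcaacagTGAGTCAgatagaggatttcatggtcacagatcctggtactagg
Mmp3: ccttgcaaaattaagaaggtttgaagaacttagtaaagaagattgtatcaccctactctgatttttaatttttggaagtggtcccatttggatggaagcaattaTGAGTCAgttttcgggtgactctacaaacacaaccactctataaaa
Mmp10: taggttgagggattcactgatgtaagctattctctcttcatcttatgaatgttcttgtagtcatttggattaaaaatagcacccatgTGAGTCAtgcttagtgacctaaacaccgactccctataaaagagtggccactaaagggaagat
Mmp8: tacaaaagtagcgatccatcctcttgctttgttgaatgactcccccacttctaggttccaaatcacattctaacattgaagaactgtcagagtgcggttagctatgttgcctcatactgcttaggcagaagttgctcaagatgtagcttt
Mmp27: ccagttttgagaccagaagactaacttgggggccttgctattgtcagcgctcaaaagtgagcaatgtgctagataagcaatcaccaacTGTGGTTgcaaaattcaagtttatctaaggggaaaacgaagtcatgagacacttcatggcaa
RefSeq lists 2 start windows for Mmp12, and the one printed, chosen because it holds a motif, lies inside the annotated gene. The first base of the AP-1 element lay 35 bases before the start in Mmp13, 44 in Mmp12, 46 in Mmp3 and 63 in Mmp10. The RUNX element lay at 119 bases in Mmp13 and at 62 bases in Mmp27, and none of these matches overlapped another. Within 150 bases, AP-1 letters occurred in 7 of the 10 genes of the cluster (also in Mmp1a, Mmp1b and Mmp7), in 0 of the 22 other Mmp, Adamts and Timp genes with a RefSeq promoter entry, and in 3.32% of all 27025 genes of that table. RUNX letters occurred in Mmp13, Mmp27 and Mmp7, in none of those 22 other genes and in 3.08% of all genes. Mmp8 held neither, which says only that these letters are not in this window. A match is a description and not evidence of binding.

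At day 4, 5 of the 6 tested genes of the cluster were lower in KO than in WT cells, where 33.8% of all genes were lower. The gap was 25.8-fold for Mmp8, 28.9-fold for Mmp3, 67.0-fold for Mmp13 and 176-fold for Mmp10, and Mmp12 was left with 1 count in KO cells. The Mmp8 value rests on 5 counts over the KO libraries. Between day 4 and day 14 all 6 rose in KO cells, where 30.8% of all genes rose, and their differences from WT cells then ran both ways. Mmp13, Mmp10, Mmp8 and Mmp27 were lower in KO than in WT cells at day 14, while Mmp3 and Mmp12 were higher. In HET cells 5 of the 6 were higher than in WT cells, where 28.3% of all genes were higher, and Mmp10 missed the threshold.

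Mmp13 (ENSMUSG00000050578, chr9:7272514-7283331, plus strand), collagenase 3, is the main interstitial collagenase of mouse bone. The KO libraries of day 14 held 43.6, 44.1 and 41.6 CPM, the HET libraries 4071, 4289 and 4127 CPM and the WT libraries 999, 1020 and 989 CPM. At day 4 Mmp13 stood at 6.34, 5.31 and 5.78 CPM in KO libraries and 379.7, 392 and 397 CPM in WT libraries. No library of any group reached the range of another: HET cells were highest, then WT cells of day 14, WT cells of day 4, KO cells of day 14 and KO cells of day 4. The log2 fold change at day 14 was -4.54 ± 0.05 (edgeR adjusted p = 1.49e-17) for KO against WT and 2.05 ± 0.05 (edgeR adjusted p = 6.38e-14) for HET against WT. KO and HET cells thus lay on opposite sides of WT cells. KO cells were lower than HET cells (log2 fold change -6.59 ± 0.05, edgeR adjusted p = 7.84e-19), which is a gap of 96.5-fold. At day 4 KO cells were lower (log2 fold change -6.07 ± 0.07, edgeR adjusted p = 1.37e-18). Between the days Mmp13 rose in both genotypes, by 2.89 ± 0.07 (edgeR adjusted p = 4.19e-15) in KO and by 1.36 ± 0.05 (edgeR adjusted p = 1.78e-12) in WT cells, and the interaction of genotype and day was 1.53 ± 0.09 (edgeR adjusted p = 1.53e-10).

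Mmp8 (ENSMUSG00000005800), the collagenase first known from neutrophils, followed Mmp13 in order at day 14 on a lower scale. It measured 2.92, 3.43 and 3.72 CPM in KO, 42.8, 38.1 and 48.2 CPM in HET and 7.05, 6.26 and 6.45 CPM in WT libraries at day 14. Day 4 values were 0.0604, 0.064 and 0.0275 CPM in KO and 1.4, 1.25 and 1.6 CPM in WT libraries. The groups did not overlap. HET cells were higher than WT cells by 2.71 ± 0.11 (edgeR adjusted p = 2.16e-11). KO cells were lower than WT cells (log2 fold change -0.97 ± 0.14, edgeR adjusted p = 1.29e-05) at day 14 and also (log2 fold change -4.69 ± 0.66, edgeR adjusted p = 3.48e-09) at day 4. The 5 neutrophil genes summed to 35.7 to 38.1 CPM in KO, 3.69 to 5.68 CPM in HET and 2.33 to 2.85 CPM in WT cells at day 14. At day 4 they summed to 0.605 to 0.966 CPM in KO and 9.26 to 12.6 CPM in WT cells. Most of this was S100a8, a calcium-binding protein of neutrophils that other cells also make, with Mpo and S100a9 at 0 in KO and HET cells of day 14. On the log2 scale S100a8 was higher than in WT cells at day 14 by 3.94 ± 0.19 in KO and 0.78 ± 0.21 in HET cells (edgeR adjusted p = 3.2e-11 and 0.0044). In KO cells of day 4 S100a8 was below its WT level (log2 fold change -3.67 ± 0.23, edgeR adjusted p = 1.54e-10), and the part of this list in the Mmp8 result was not tested.

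Mmp3 (ENSMUSG00000043613, chr9:7445822-7455975, plus strand), stromelysin 1, which cuts proteoglycans and fibronectin and activates other Mmp precursors, turned round between the days. At day 14 it held 194, 191 and 180.3 CPM in KO, 123, 156 and 119 CPM in HET and 30.8, 38.9 and 36.1 CPM in WT libraries. At day 4 the values were 17.1, 18.7 and 17.4 CPM in KO and 509, 507 and 520.0 CPM in WT libraries. Every KO library was thus above every WT library at day 14 and below every WT library at day 4. KO cells were higher by 2.42 ± 0.09 (edgeR adjusted p = 1e-11) at day 14 and lower (log2 fold change -4.85 ± 0.10, edgeR adjusted p = 3.84e-15) at day 4, with an interaction of 7.27 ± 0.13 (edgeR adjusted p = 2.68e-15). HET cells were also higher than WT cells at day 14, by 1.91 ± 0.10 (edgeR adjusted p = 1.6e-10). The turn has a part from each genotype: Mmp3 rose by 3.41 ± 0.10 (edgeR adjusted p = 2.01e-13) between the days in KO cells and fell by 3.86 ± 0.09 on the log2 scale in WT cells (edgeR adjusted p = 3.89e-14).

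Mmp10 (ENSMUSG00000047562), stromelysin 2, has a protein close to that of Mmp3 but did not follow it at day 14. It gave 1.48, 0.549 and 0.949 CPM in KO, 4.74, 4.36 and 6.17 CPM in HET and 6.07, 9.83 and 5.98 CPM in WT libraries at day 14. Mmp10 at day 4 gave 0.332, 0.128 and 0.413 CPM in KO and 51.6, 51.8 and 55.5 CPM in WT libraries, the widest gap of any tested gene of these families with more than 3 counts in each group. KO cells were lower (log2 fold change -2.86 ± 0.32, edgeR adjusted p = 3.39e-07) at day 14 and also (log2 fold change -7.46 ± 0.42, edgeR adjusted p = 1.64e-12) at day 4. HET against WT was -0.51 ± 0.22 and missed the threshold (edgeR adjusted p = 0.0593). It passed without HET replicate 3, WT replicate 1 or WT replicate 3 (-0.68, -0.63 and -0.63, edgeR adjusted p = 0.0305, 0.0342 and 0.0356). It also passed under library totals alone (-0.61, edgeR adjusted p = 0.0286), with no filter (-0.49, edgeR adjusted p = 0.00458) and in DESeq2 (-0.50, adjusted p = 0.047). Mmp3 and Mmp10 share 8.39% and 8.37% of their 50-base stretches with other genes, each of the 2 sharing the most with the other. A small part of their reads may thus have been lost or exchanged.

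Mmp12 (ENSMUSG00000049723), the elastase named after macrophages, was nearly absent from KO cells of day 4. Its libraries held 5.24, 6.04 and 6.05 CPM in KO, 3.02, 3.73 and 3.15 CPM in HET and 1.26, 2.09 and 1.87 CPM in WT cells at day 14. At day 4 it had 1 count over the 3 KO libraries and 244 counts over the 3 WT libraries, a ratio of WT to KO of 232 (95% counting interval 41.3 to 9200, edgeR adjusted p = 1.23e-09), and the 1 count came from KO replicate 3. At day 14 KO cells were above WT cells by 1.73 ± 0.22 (edgeR adjusted p = 3.86e-06) and HET cells by 0.92 ± 0.23 (edgeR adjusted p = 0.0023). No KO or HET library overlapped a WT library. From day 4 the count in KO cells grew to 409, a ratio of day 14 to day 4 of 582 (95% counting interval 104 to 23000, edgeR adjusted p = 6.84e-11). WT cells did not pass the test between the days (-0.38 ± 0.22, edgeR adjusted p = 0.137). Intervals and floors from counts cover counting error only. The macrophage list was mixed beside this. Ptprc and Adgre1 had 1 and 0 counts over the KO libraries of day 14, and Csf1r was lower in KO than in WT cells at day 14 (log2 fold change -3.28 ± 0.80, edgeR adjusted p = 0.000334). Cd68, a lysosomal protein of macrophages, averaged 37.9 ± 1.82 CPM in KO and 6.28 ± 0.335 CPM in WT cells at day 14 (2.59 ± 0.10, edgeR adjusted p = 3.73e-12), and Cd14 averaged 81.6 ± 3.58 CPM in KO and 29 ± 1.33 CPM in WT cells (1.49 ± 0.08, edgeR adjusted p = 3.01e-10). From day 4 to day 14 in KO cells Cd68 rose by 2.81 ± 0.09 and Lyz2 by 5.61 ± 0.90 (edgeR adjusted p = 7.54e-13 and 8.88e-07). Over the same span Csf1r fell (log2 fold change -3.76 ± 0.78, edgeR adjusted p = 4.28e-05) and Cd14 was not called (0.04 ± 0.08, edgeR adjusted p = 0.695). The part of these genes in the Mmp12 result was not tested.

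Mmp27 (ENSMUSG00000070323), a little studied member of the cluster, held 3.13, 3.06 and 3.28 CPM in KO, 9.24, 9.94 and 9.15 CPM in HET and 6.86, 5.29 and 6.4 CPM in WT cells at day 14. Mmp27 stood at 0.724, 0.544 and 0.688 CPM in KO and 0.274, 0.623 and 0.506 CPM in WT libraries at day 4. At day 14 Mmp27 was lower in KO cells than in WT cells (log2 fold change -0.97 ± 0.17, edgeR adjusted p = 0.000158), with no overlap of the libraries. HET cells were higher than WT cells by 0.61 ± 0.16 (edgeR adjusted p = 0.00392). It was the one tested gene of the cluster that was not lower in KO cells of day 4, at 0.52 ± 0.28 (edgeR adjusted p = 0.107), which passed as higher without WT replicate 2 of day 4 (0.84, edgeR adjusted p = 0.0226) and under library totals alone (0.66, edgeR adjusted p = 0.0431).

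**Figure D3:**
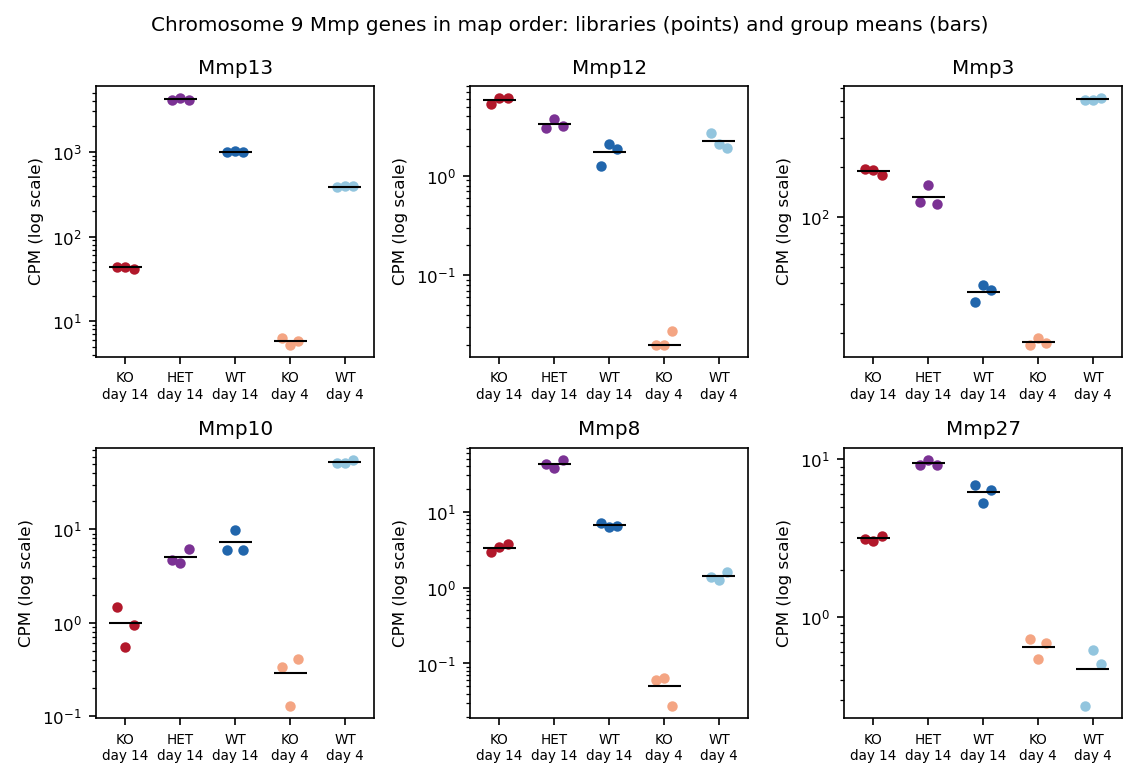
Levels of the 6 tested Mmp genes of the chromosome 9 cluster in map order, in CPM on a log scale, with 1 point per library, a bar at the group mean and values under 0.02 CPM drawn at 0.02. KO cells of day 4 lie lowest in every panel but that of Mmp27, and HET cells of day 14 lie highest for Mmp13, Mmp8 and Mmp27.

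The neighbours of the cluster were the nearest 5 tested protein-coding genes on each side, from Casp4 to Dcun1d5 before it and from Tmem123 to Cfap300 after it. Measured from the start of the cluster, their starts lay at -1963.7 to -88.0 kb and at 491.5 to 749.2 kb. Their log2 fold changes for KO against WT ran from -0.63 to 0.99 at day 14 and from -0.62 to 2.22 at day 4, with a median absolute value of 0.19 and 0.75, against 2.07 and 5.46 for the 6 genes of the cluster. In HET against WT, 8 of these 10 neighbours were called higher and 0 lower, against 5 of the 6 cluster genes higher and 0 lower, and 28.3% of all genes higher. The neighbours ran from 0.16 to 2.13, with a median absolute value of 0.69, against 1.42 for the cluster. No test of these differences was made, and the neighbours are not a sample of all genes.

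The gelatinases cut denatured collagen and basement membrane collagen, and the 2 of them moved in opposite directions in HET cells of day 14 and in KO cells of day 4. Mmp2 (ENSMUSG00000031740, chr8:92827291-92853420, plus strand), gelatinase A, held 287, 287 and 277 CPM in KO, 1295, 1151 and 1279 CPM in HET and 352, 336 and 318 CPM in WT libraries at day 14. At day 4 it held 287, 292 and 289.6 CPM in KO and 1712, 1699 and 1682 CPM in WT libraries. HET cells of day 14 and WT cells of day 4 were thus high, and the other 3 groups lay between 277 and 352 CPM. HET cells were above WT cells by 1.89 ± 0.05 (edgeR adjusted p = 2.42e-13). KO cells were below WT cells (log2 fold change -2.55 ± 0.05, edgeR adjusted p = 2.83e-15) at day 4 and also (log2 fold change -0.24 ± 0.05, edgeR adjusted p = 0.000969) at day 14, with an interaction of 2.31 ± 0.07 (edgeR adjusted p = 5.95e-13). Mmp9 (ENSMUSG00000017737), gelatinase B, which osteoclasts and leukocytes make in bone, stayed low: 5.5, 5.95 and 5.65 CPM in KO, 0.192, 0.578 and 0.631 CPM in HET and 11.1, 8.54 and 10.1 CPM in WT libraries at day 14. At day 4 the Mmp9 values were 4.89, 5.6 and 5.89 CPM in KO and 1.55, 1.51 and 1.14 CPM in WT libraries. HET libraries were the lowest of all. Against WT cells, Mmp9 was lower in HET cells (log2 fold change -4.39 ± 0.30, edgeR adjusted p = 3.94e-10) and in KO cells (log2 fold change -0.80 ± 0.17, edgeR adjusted p = 0.000605) at day 14, and higher in KO cells by 1.93 ± 0.19 (edgeR adjusted p = 1.45e-07) at day 4.

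Mmp14 (ENSMUSG00000000957, chr14:54431612-54445364, plus strand), the membrane-type protease that activates the Mmp2 precursor with the help of Timp2, was highest in the same group as Mmp13. Its day 14 libraries held 136, 137 and 139.5 CPM in KO, 466, 469.5 and 472 CPM in HET and 126, 123 and 131 CPM in WT cells. At day 4 they held 76.9, 75.4 and 74.5 CPM in KO and 170.0, 175 and 163 CPM in WT cells. HET libraries stood above all others, and KO libraries of day 4 below all others. HET cells were higher than WT cells by 1.89 ± 0.04 (edgeR adjusted p = 3.2e-14), and KO cells of day 4 were lower (log2 fold change -1.16 ± 0.04, edgeR adjusted p = 1.75e-12). The small difference between KO and WT cells at day 14, 0.12 ± 0.04 (edgeR adjusted p = 0.0278), passed the test but lost the call when KO replicate 2, KO replicate 3, WT replicate 1 or WT replicate 2 was left out (edgeR adjusted p = 0.0612, 0.0758, 0.0572 and 0.12). The call was also lost under library totals alone, where the value was 0.07, with no filter and with the compared groups alone (edgeR adjusted p = 0.222, 0.0762 and 0.0642).

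The other membrane-bound enzymes were low, and most of them were higher in WT than in KO cells at day 14. Mmp15, a transmembrane type, had 0.719, 1.01 and 0.356 CPM in KO, 1.25, 1.58 and 1.31 CPM in HET and 6.12, 5.71 and 4.49 CPM in WT libraries at day 14. Mmp15 stood at 1.78, 1.5 and 1.13 CPM in KO and 0.252, 0.312 and 0.379 CPM in WT libraries at day 4. WT cells of day 14 were above every other group. KO against WT was -2.98 ± 0.30 (edgeR adjusted p = 2.37e-07) at day 14 and 2.25 ± 0.35 (edgeR adjusted p = 1.43e-05) at day 4, an interaction of -5.23 ± 0.46 (edgeR adjusted p = 3.25e-08). Mmp17, anchored by a lipid, had 0.0846, 0.137 and 0.119 CPM in KO, 0.287, 0.263 and 0.316 CPM in HET and 1.73, 2.46 and 1.4 CPM in WT libraries at day 14. Against WT cells it was lower in KO (log2 fold change -3.99 ± 0.55, edgeR adjusted p = 1.37e-06) and in HET cells (log2 fold change -2.67 ± 0.42, edgeR adjusted p = 2.59e-05), and averaged 0.677 CPM in KO and 0.527 CPM in WT cells at day 4 with no call. Mmp25, the other lipid-anchored type, had 0, 0 and 0.119 CPM in KO, 0.144, 0.105 and 0.135 CPM in HET and 1.68, 1.02 and 2.34 CPM in WT libraries at day 14, from 3, 8 and 108 counts. It was lower in HET than in WT cells (log2 fold change -3.66 ± 0.71, edgeR adjusted p = 7.58e-05). Its ratio of WT to KO was then 39.6 (95% counting interval 13.2 to 195, edgeR adjusted p = 1.05e-05), and all 3 KO counts came from replicate 3. At day 4 Mmp25 had 5 counts in KO and 31 in WT cells, lower in KO (log2 fold change -2.41 ± 0.89, edgeR adjusted p = 0.00951), a call lost without WT replicate 2 (-1.90, edgeR adjusted p = 0.0595). Mmp16, a transmembrane type, stood out instead in KO cells of day 4, with 16.1, 16.6 and 16.4 CPM, against 2.74, 2.75 and 2.02 CPM in WT libraries. At day 14 it had 3.64, 2.61 and 2.73 CPM in KO, 0.479, 0.736 and 1.44 CPM in HET and 3.69, 2.0 and 3.08 CPM in WT libraries. KO was higher by 2.68 ± 0.21 (edgeR adjusted p = 1.34e-08) at day 4, and HET was lower than WT (log2 fold change -1.70 ± 0.33, edgeR adjusted p = 0.000246) at day 14.

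Mmp23 (ENSMUSG00000029061), an unusual member with a cysteine-rich tail in place of the common C-terminal domain, was highest in KO cells at both days. Its libraries held 16.1, 15.9 and 19.7 CPM in KO, 1.77, 2.21 and 2.39 CPM in HET and 1.96, 1.44 and 1.59 CPM in WT cells at day 14. Mmp23 stood at 5.7, 6.97 and 5.8 CPM in KO and 1.17, 1.27 and 0.632 CPM in WT libraries at day 4. Every KO library lay above every WT library of its day. KO cells were higher by 3.37 ± 0.20 (edgeR adjusted p = 4.87e-10) at day 14 and by 2.52 ± 0.20 (edgeR adjusted p = 9.45e-09) at day 4, and HET cells did not pass against WT (0.35 ± 0.23, edgeR adjusted p = 0.21). Mmp11, stromelysin 3, which leaves the cell in active form, held 44, 41.1 and 46.2 CPM in KO, 39.5, 41.5 and 43.9 CPM in HET and 47.5, 46.9 and 43.7 CPM in WT libraries at day 14. At day 4 its libraries held 23.8, 24.2 and 23.7 CPM in KO and 10.8, 11.1 and 10.2 CPM in WT cells. The 3 genotypes lay close together at day 14, with no call for KO (-0.07 ± 0.06, edgeR adjusted p = 0.346), and KO cells were higher at day 4 by 1.16 ± 0.07 (edgeR adjusted p = 3.64e-10). For HET against WT Mmp11 gave -0.14 ± 0.06 (edgeR adjusted p = 0.0669), and passed without HET replicate 3 (-0.18, edgeR adjusted p = 0.0439).

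Mmp19 gave 61, 56.9 and 59.1 CPM in KO, 62.5, 53.9 and 64.5 CPM in HET and 43.1, 38.6 and 39.9 CPM in WT libraries at day 14. Mmp19 stood at 67.6, 66.4 and 68.8 CPM in KO and 30.7, 31.2 and 28.9 CPM in WT libraries at day 4. KO and HET libraries were all above WT libraries, by 0.54 ± 0.07 (edgeR adjusted p = 6.06e-06) and 0.57 ± 0.07 (edgeR adjusted p = 3.62e-06) at day 14 and by 1.16 ± 0.07 (edgeR adjusted p = 4.13e-10) for KO at day 4. Mmp28, epilysin, gave 13.2, 13.4 and 12.6 CPM in KO, 15.8, 8.94 and 14.4 CPM in HET and 8.12, 6.12 and 8.6 CPM in WT libraries at day 14. Mmp28 stood at 12.2, 10.7 and 12.8 CPM in KO and 4.53, 5.61 and 5.22 CPM in WT libraries at day 4. Mmp28 was higher in KO than in WT cells by 0.78 ± 0.18 (edgeR adjusted p = 0.00124) at day 14 and 1.22 ± 0.17 (edgeR adjusted p = 1.14e-05) at day 4. It was higher in HET than in WT cells by 0.78 ± 0.18 (edgeR adjusted p = 0.00142), although HET replicate 2 lay far below the other HET libraries. Both genes share sequence with other annotated genes, so their counts are less certain. The shares were 24.7% of 50-base stretches for Mmp19, with Tmem198b sharing the most, and 10.5% for Mmp28, with 1700020L24Rik sharing the most.

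The ADAMTS proteoglycanases, which cut aggrecan and versican, did not move as a block. Adamts1 (ENSMUSG00000022893, chr16:85793827-85803113, minus strand) held 127, 123 and 125 CPM in KO, 82.2, 66.8 and 79.2 CPM in HET and 52.7, 49.3 and 46.1 CPM in WT libraries at day 14. Adamts1 at day 4 held 51.1, 54 and 53.1 CPM in KO and 694, 700.3 and 682 CPM in WT libraries. WT cells of day 4 were far above all other groups, whereas at day 14 WT cells were the lowest of the 3 genotypes. KO cells were lower (log2 fold change -3.71 ± 0.07, edgeR adjusted p = 9.67e-16) at day 4 and higher by 1.34 ± 0.07 (edgeR adjusted p = 1.77e-10) at day 14, with an interaction of 5.05 ± 0.10 (edgeR adjusted p = 2.61e-15). HET cells were higher than WT cells by 0.62 ± 0.07 (edgeR adjusted p = 1.31e-06). Adamts5 (ENSMUSG00000022894, chr16:85856173-85901828, minus strand) is the next gene of the family on chromosome 16 and encodes the main aggrecanase of mouse cartilage. Its libraries held 47.2, 45.7 and 48.7 CPM in KO, 48.0, 39.9 and 49.99 CPM in HET and 49.3, 50.4 and 48.5 CPM in WT cells at day 14. Adamts5 stood at 86, 82.8 and 86.8 CPM in KO and 19.7, 20.6 and 21.4 CPM in WT libraries at day 4. At day 4 it was higher in KO by 2.05 ± 0.07 (edgeR adjusted p = 9.66e-13), the opposite of its neighbour, and at day 14 neither KO (-0.06 ± 0.07, edgeR adjusted p = 0.455) nor HET (-0.10 ± 0.07, edgeR adjusted p = 0.242) passed against WT.

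Adamts4, another aggrecanase, stood at 37.9, 37.9 and 33.8 CPM in KO, 68.3, 56.4 and 59 CPM in HET and 44.7, 40.2 and 38.9 CPM in WT libraries at day 14. Adamts4 stood at 7.24, 7.58 and 8.47 CPM in KO and 14.6, 15.6 and 15.9 CPM in WT libraries at day 4. HET libraries were above the others at day 14, by 0.57 ± 0.08 (edgeR adjusted p = 3.07e-05) against WT, and KO libraries were below WT libraries at day 4 (log2 fold change -0.98 ± 0.10, edgeR adjusted p = 1.57e-07). KO against WT at day 14 was -0.18 ± 0.09 (edgeR adjusted p = 0.0839). Adamts9 (ENSMUSG00000030022), which cuts versican, gave 53.2, 53.9 and 52.1 CPM in KO, 5.75, 4.73 and 7.3 CPM in HET and 39.8, 31.6 and 29.6 CPM in WT libraries at day 14. Adamts9 stood at 9.18, 7.67 and 8.97 CPM in KO and 25.7, 24.5 and 25.4 CPM in WT libraries at day 4. Here KO cells were above WT cells at day 14 by 0.66 ± 0.11 (edgeR adjusted p = 0.00012) and HET cells below them (log2 fold change -2.50 ± 0.14, edgeR adjusted p = 3.4e-10), and KO cells were below at day 4 (log2 fold change -1.55 ± 0.12, edgeR adjusted p = 1.31e-08). Adamts20, of the same branch, had 4 counts in KO, 5 in HET and 61 in WT cells at day 14, and 0 in KO and 45 in WT cells at day 4. At day 14 the changes against WT were -3.97 ± 0.87 (edgeR adjusted p = 0.000147) in KO and -3.49 ± 0.80 (edgeR adjusted p = 0.000368) in HET cells, and the HET value was -2.98 without HET replicate 2 and -4.17 without HET replicate 1. With KO cells of day 4 set at a floor of 3 counts over the group, it was at least 14.3-fold lower there than in WT cells. Of the 50-base stretches of Adamts9, 10.5% occur in other genes, with A730049H05Rik sharing the most, so its counts are less certain.

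The procollagen N-proteinases, which trim the amino end of fibrillar procollagens, were all 3 lower in HET than in WT cells, where 29.9% of all genes were lower. Adamts2 (ENSMUSG00000036545, chr11:50602084-50807573, plus strand) held 49.9, 50.3 and 47.8 CPM in KO, 15, 10.4 and 13.1 CPM in HET and 83, 68.5 and 68.6 CPM in WT libraries at day 14. Its day 4 values were 39.3, 38.6 and 40.7 CPM in KO and 5.88, 6.42 and 5.44 CPM in WT libraries. The ranges did not overlap within a day, with WT cells highest at day 14 and lowest at day 4. HET cells were lower than WT cells (log2 fold change -2.51 ± 0.11, edgeR adjusted p = 3.02e-11), and KO cells were lower (log2 fold change -0.57 ± 0.10, edgeR adjusted p = 0.000113) at day 14 and higher by 2.73 ± 0.11 (edgeR adjusted p = 4.79e-12) at day 4. Adamts14 gave 25.3, 21.8 and 21.5 CPM in KO, 8.72, 7.52 and 7.66 CPM in HET and 31.1, 30.4 and 28.6 CPM in WT libraries at day 14. Adamts14 stood at 11.3, 12.5 and 11.8 CPM in KO and 15.4, 14.7 and 14.6 CPM in WT libraries at day 4. HET was lower than WT (log2 fold change -1.91 ± 0.09, edgeR adjusted p = 6.3e-11), and KO was lower (log2 fold change -0.39 ± 0.08, edgeR adjusted p = 0.0006) at day 14 and also (log2 fold change -0.33 ± 0.08, edgeR adjusted p = 0.0023) at day 4, the second call being lost under library totals alone (-0.19, edgeR adjusted p = 0.0632). Adamts3 had no count in the KO libraries of day 4 and 281 counts in the WT libraries, at least 89.1-fold lower in KO (edgeR adjusted p = 4.92e-08). At day 14 its libraries held 1.1, 0.823 and 1.11 CPM in KO, 0.766, 0.315 and 0.766 CPM in HET and 2.71, 1.58 and 1.31 CPM in WT cells. HET against WT was -1.57 ± 0.38 (edgeR adjusted p = 0.00228) and KO against WT -0.88 ± 0.34 (edgeR adjusted p = 0.0364), and the call for KO was lost on leaving out KO replicate 1, KO replicate 2, KO replicate 3 or WT replicate 1 (edgeR adjusted p = 0.0621, 0.111, 0.0611 and 0.216) and with the replicate number as a block (edgeR adjusted p = 0.0529).

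Adamts7 and Adamts12 both cut the cartilage protein COMP. Adamts7 held 76.5, 71.5 and 76.1 CPM in KO, 96.6, 79.2 and 97.5 CPM in HET and 70.1, 56.8 and 58.6 CPM in WT libraries at day 14. Adamts7 stood at 201, 198 and 198 CPM in KO and 131, 132 and 128 CPM in WT libraries at day 4. WT libraries were lowest within each day. KO was higher by 0.27 ± 0.08 (edgeR adjusted p = 0.00892) at day 14, a call lost without WT replicate 2 (0.21, edgeR adjusted p = 0.0542). It was higher by 0.61 ± 0.08 (edgeR adjusted p = 4.19e-06) at day 4, and HET was higher than WT by 0.56 ± 0.08 (edgeR adjusted p = 2.57e-05). Adamts12 held 4.48, 4.34 and 4.58 CPM in KO, 0.479, 0.368 and 0.27 CPM in HET and 1.91, 1.76 and 1.78 CPM in WT cells at day 14. Adamts12 stood at 1.06, 1.7 and 2.31 CPM in KO and 0.96, 0.468 and 0.169 CPM in WT libraries at day 4. KO and HET cells lay on opposite sides of WT cells at day 14, at 1.30 ± 0.33 (edgeR adjusted p = 0.00287) and -2.28 ± 0.50 (edgeR adjusted p = 0.000521). At day 4 KO was higher by 1.54 ± 0.38 (edgeR adjusted p = 0.00165), and by 2.27 without WT replicate 1. Adamts10, a protease of fibrillin microfibrils, held 27.8, 28.5 and 26.1 CPM in KO, 25.2, 24.7 and 21.9 CPM in HET and 25.9, 27.1 and 23.2 CPM in WT libraries at day 14. Adamts10 stood at 39.1, 39.8 and 37.9 CPM in KO and 17.1, 17.8 and 16.6 CPM in WT libraries at day 4. KO was higher by 1.18 ± 0.07 (edgeR adjusted p = 7.25e-10) at day 4, and no call was made against WT at day 14 in KO (0.11 ± 0.08, edgeR adjusted p = 0.212) or HET cells (-0.09 ± 0.08, edgeR adjusted p = 0.343). Its close relative Adamts6 had 4.06, 2.93 and 2.17 CPM in KO, 3.07, 1.79 and 4.01 CPM in HET and 0.98, 0.417 and 0.327 CPM in WT libraries at day 14. Adamts6 stood at 20.6, 22.1 and 21 CPM in KO and 9.53, 10.2 and 10.2 CPM in WT libraries at day 4. All KO and HET libraries lay above the WT libraries of their day. KO was higher than WT by 2.40 ± 0.41 (edgeR adjusted p = 3.61e-05) and HET by 2.37 ± 0.41 (edgeR adjusted p = 5.17e-05) at day 14, or by 3.02 and 2.99 without WT replicate 1. At day 4 KO was higher by 1.09 ± 0.19 (edgeR adjusted p = 0.000105).

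Among the inhibitors, Timp2 was higher and Timp3 lower in both mutant genotypes at day 14, and Timp1 was called in neither. Timp2 (ENSMUSG00000017466, chr11:118301069-118355740, minus strand), which blocks Mmp2 and also helps to activate it, held 685, 656 and 666 CPM in KO, 674, 618 and 682 CPM in HET and 556, 499 and 488 CPM in WT libraries at day 14. Timp2 at day 4 held 637, 639.8 and 637 CPM in KO and 318, 320.2 and 310.0 CPM in WT libraries. KO and HET libraries were above all WT libraries of their day. KO was higher by 0.38 ± 0.05 (edgeR adjusted p = 1.9e-05) at day 14 and 1.01 ± 0.05 (edgeR adjusted p = 1.28e-10) at day 4, and HET by 0.36 ± 0.05 (edgeR adjusted p = 4.02e-05). Timp3 (ENSMUSG00000020044, chr10:86300372-86349506, plus strand), which binds to the matrix and also inhibits aggrecanases, had 12.3, 13 and 12.4 CPM in KO, 9.15, 4.31 and 9.92 CPM in HET and 44.7, 37.5 and 28.4 CPM in WT libraries at day 14. It had 132, 134 and 131 CPM in KO and 122, 124 and 126 CPM in WT libraries at day 4. Day 4 was high in both genotypes, and at day 14 the WT libraries were the highest. Against WT cells Timp3 was lower in KO (log2 fold change -1.55 ± 0.19, edgeR adjusted p = 2.87e-06) and in HET cells (log2 fold change -2.23 ± 0.20, edgeR adjusted p = 1.1e-07). Between the days it fell by 3.40 ± 0.18 on the log2 scale in KO cells (edgeR adjusted p = 2.88e-10) and by 1.75 ± 0.17 in WT cells (edgeR adjusted p = 1.34e-07). Of its 50-base stretches 21.4% occur in other genes, with Syn3, the gene in which it lies, sharing the most. Timp1 (ENSMUSG00000001131), a general Mmp inhibitor, gave 108, 104 and 109 CPM in KO, 96, 144 and 91.9 CPM in HET and 95.7, 110.0 and 122 CPM in WT libraries at day 14. Timp1 stood at 76, 76.4 and 73.8 CPM in KO and 46.1, 45.1 and 49.4 CPM in WT libraries at day 4. The 3 genotypes overlapped at day 14, with HET replicate 2 above all other libraries. KO against WT was -0.03 ± 0.13 (edgeR adjusted p = 0.861), and HET against WT was 0.02 ± 0.13 (edgeR adjusted p = 0.92). Without HET replicate 2 Timp1 was lower in HET than in WT cells (-0.22, edgeR adjusted p = 0.00796) and higher in KO than in HET cells (0.19, edgeR adjusted p = 0.022). At day 4 KO was higher than WT by 0.69 ± 0.13 (edgeR adjusted p = 0.00021).

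**Figure D4:**
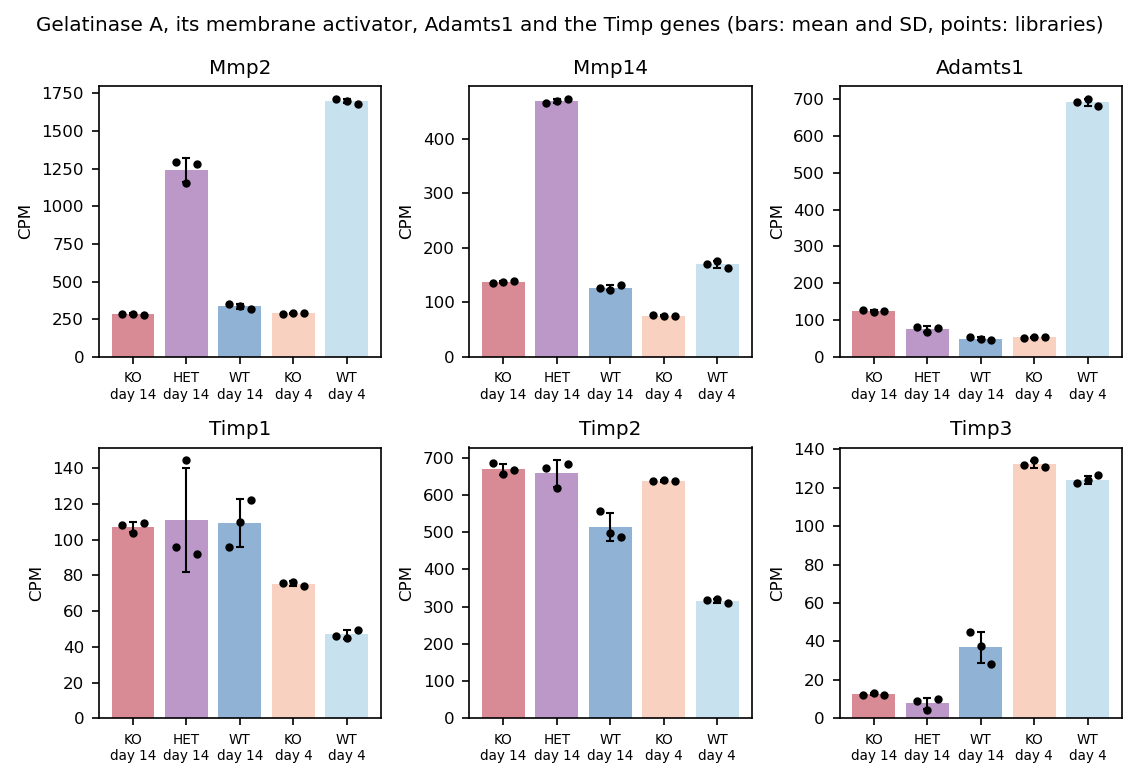
Levels in CPM of Mmp2, Mmp14, Adamts1 and the 3 tested Timp genes, as the mean of each group (bars, axis from 0), its SD (error bars) and the 3 libraries (points). Mmp14 is highest in HET cells of day 14 (469 CPM) and Mmp2 in WT cells of day 4 (1698 CPM, and 1242 CPM in HET cells of day 14), while Timp2 stays between 316 and 669 CPM in every group.

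Compared between genes per kilobase of exon, the order within the families changed with genotype and day. In KO cells of day 14 the highest were Timp2, Timp1, Mmp3 and Mmp2, at 172 ± 3.85, 121 ± 3.21, 105 ± 4.08 and 84.2 ± 1.75 CPM per kb. In HET cells they were Mmp13, Mmp2, Timp2 and Timp1, at 1557 ± 42.3, 368 ± 23.4, 169 ± 9.02 and 125 ± 32.8 CPM per kb. In WT cells they were Mmp13, Timp2, Timp1 and Mmp2, at 375 ± 5.89, 132 ± 9.45, 123 ± 14.9 and 99.4 ± 5.07 CPM per kb. Inhibitors led in KO cells and collagenase in HET and WT cells. At day 4 Timp2 led in KO cells, at 164 ± 0.44 CPM per kb, and Mmp2 in WT cells, at 504 ± 4.54 CPM per kb. Summed per kilobase, the ratio of Mmp to Timp levels was 0.945 ± 0.0236 in KO, 7.29 ± 0.475 in HET and 2.16 ± 0.0814 in WT cells at day 14. It was 0.56 ± 0.00458 in KO and 6.76 ± 0.0473 in WT cells at day 4. The ranges did not overlap between the groups of a day. The ratio is of transcripts and gives no protein or activity.

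Between the days, KO cells gained Mmp8 (5.95 ± 0.65, edgeR adjusted p = 6.13e-11), Mmp3, Mmp13, Adamts9 (2.62 ± 0.12, edgeR adjusted p = 4.19e-11) and Adamts4 (2.23 ± 0.09, edgeR adjusted p = 1.1e-11). The rise of Mmp8 starts from 5 counts at day 4. Adamts3, with no count in KO cells of day 4, was at least 34.2-fold higher at day 14. Falls in KO cells were led by Timp3, Adamts6 (-2.80 ± 0.23, edgeR adjusted p = 2.8e-08), Mmp17 (-2.53 ± 0.56, edgeR adjusted p = 0.000292) and Mmp16 (-2.45 ± 0.22, edgeR adjusted p = 8.67e-08). In WT cells the largest rises were those of Mmp15 (4.14 ± 0.33, edgeR adjusted p = 4.93e-09), Mmp27 (3.75 ± 0.24, edgeR adjusted p = 2.41e-10) and Adamts2 (3.62 ± 0.11, edgeR adjusted p = 2.6e-13). The largest falls in WT cells were those of Adamts6 (-4.10 ± 0.39, edgeR adjusted p = 7.23e-09), Mmp3 and Adamts1 (-3.81 ± 0.07, edgeR adjusted p = 1.6e-15), and Adamts6 gave -4.72 without WT replicate 1 of day 14. Mmp2 did not pass between the days in KO cells (-0.03 ± 0.05, edgeR adjusted p = 0.654) and fell in WT cells (-2.34 ± 0.05, edgeR adjusted p = 9.84e-15).

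Set against HET cells at day 14, KO cells held less collagenase and gelatinase A and more of several ADAMTS proteases. Mmp13 had the widest gap, and Mmp8 (-3.68 ± 0.12, edgeR adjusted p = 9.69e-13), Mmp2 (-2.13 ± 0.05, edgeR adjusted p = 4.56e-14) and Mmp14 (-1.77 ± 0.04, edgeR adjusted p = 4.45e-14) were also lower in KO than in HET cells. Higher in KO than in HET cells were Mmp9 (3.60 ± 0.30, edgeR adjusted p = 6.99e-09), Adamts12 (3.58 ± 0.48, edgeR adjusted p = 2.44e-06), Adamts9 (3.15 ± 0.14, edgeR adjusted p = 1.82e-11), Mmp23 (3.02 ± 0.19, edgeR adjusted p = 1.29e-09) and the procollagen N-proteinase Adamts2 (1.94 ± 0.11, edgeR adjusted p = 5.18e-10). Mmp11, Mmp19, Mmp28, Adamts5 and Adamts6 were not called between these groups, with log2 fold changes within 0.1 of 0 for each.

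Factors known to act on Mmp promoters were mostly lower in KO cells at day 4. Of 19 regulators in the AP-1, ETS, RUNX and NF-kappaB families, with Cebpb and Atf3 among them and all tested, 1 was higher and 17 were lower in KO than in WT cells at day 4, where 35.7% of all genes were higher and 33.8% lower. Their median log2 fold change was -0.86, against 0.03 over all genes. Jun, a core AP-1 subunit, averaged 42.7 ± 1.4 CPM in KO and 245 ± 2.88 CPM in WT cells, a log2 fold change of -2.52 ± 0.05 (edgeR adjusted p = 3.8e-15). Fosl1, a FOS family partner of JUN, averaged 67.5 ± 1.49 CPM in KO and 312 ± 12.6 CPM in WT cells (-2.21 ± 0.06, edgeR adjusted p = 2.17e-14). Atf3, a related factor, averaged 15.5 ± 0.534 CPM in KO and 112 ± 2.75 CPM in WT cells (-2.86 ± 0.06, edgeR adjusted p = 2.4e-15). At day 14 the list was split, with 8 higher and 9 lower in KO than in WT cells, against 30.9% and 32.2% of all genes. Among the 8 were Ets2 and Fosl1, higher by 0.92 ± 0.04 and 0.66 ± 0.06 (edgeR adjusted p = 2.93e-11 and 5.26e-08). Runx2 and Jun were also among them, by 0.63 ± 0.08 and 0.41 ± 0.05 (edgeR adjusted p = 6e-06 and 9.84e-06). In HET against WT 6 of the 19 regulators were higher and 7 lower, against 28.3% and 29.9% of all genes. Jun, Atf3 and Ets2 were higher in HET than in WT cells, by 1.23 ± 0.05, 1.26 ± 0.06 and 1.17 ± 0.04 (edgeR adjusted p = 3.54e-11, 4.62e-11 and 2.56e-12), and Fosl1 was lower (log2 fold change -0.27 ± 0.06, edgeR adjusted p = 0.000656). Whether these factors act on the protease genes here was not tested.

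The enzymes that activate the precursors showed no common direction. Over all genes, 30.9% and 32.2% were higher and lower in KO than in WT cells at day 14, 35.7% and 33.8% at day 4, and 28.3% and 29.9% in HET than in WT cells. Of 6 tested of 10 activators, 2 were higher and 2 lower in KO than in WT cells at each day, and 2 higher and 4 lower in HET than in WT cells. Plaur, the receptor of urokinase, averaged 24.8 ± 1.05 CPM in KO and 117 ± 2.38 CPM in WT cells at day 4 (-2.23 ± 0.09, edgeR adjusted p = 3.39e-12), and at day 14 it was higher in KO by 0.59 ± 0.09 (edgeR adjusted p = 3.43e-05). Plau, urokinase itself, was lower in KO at day 4 (log2 fold change -1.07 ± 0.06, edgeR adjusted p = 4.4e-10). Plat, the tissue plasminogen activator, was lower in HET than in WT cells (log2 fold change -1.52 ± 0.07, edgeR adjusted p = 1.19e-10). Furin, which opens the precursors of Mmp14 and the ADAMTS proteases, averaged 93.9 ± 2.56 CPM in KO and 124 ± 21.5 CPM in HET cells, against 83.1 ± 7.84 CPM in WT cells, with a call for HET (0.58 ± 0.10, edgeR adjusted p = 0.000102). Of 8 tested of 12 other inhibitors, clearance receptors and related genes, 3 were higher and 3 lower in KO than in WT cells at day 14, 4 and 3 at day 4, and 3 and 1 in HET than in WT cells. Among them Mrc2, the receptor that takes up cut collagen, was higher in HET by 1.48 ± 0.06 (edgeR adjusted p = 7.67e-12). Pcolce2, an enhancer of the procollagen C-proteinase, was higher in KO by 1.69 ± 0.09 at day 14 and 2.44 ± 0.08 at day 4 (edgeR adjusted p = 1.32e-10 and 7.34e-13).

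The substrates did not follow their proteases in a single direction. The counts below stand against the same shares of all genes, 30.9% higher and 32.2% lower in KO at day 14, 35.7% and 33.8% in KO at day 4, and 28.3% and 29.9% in HET cells. Of 17 tested of 20 matrix genes, 6 were higher and 9 lower in KO than in WT cells at day 14, 9 higher and 5 lower in HET than in WT cells, and 7 higher and 5 lower in KO than in WT cells at day 4. Col1a2, which encodes the other type I collagen chain, averaged 0.117 ± 0.0987 CPM in KO and 489.5 ± 37 CPM in HET cells, against 0.31 ± 0.163 CPM in WT cells at day 14. At day 14 HET cells thus held the most Mmp13, Mmp2 and Mmp14 and also the most Col1a2. Col3a1 was higher in HET than in WT cells by 2.59 ± 0.05 (edgeR adjusted p = 1.52e-15). Of the ADAMTS substrates, Vcan (versican) averaged 631 ± 12.8 CPM in KO and 2488 ± 26.8 CPM in WT cells at day 4 (-1.98 ± 0.17, edgeR adjusted p = 5.85e-08). At day 14 it averaged 251 CPM in KO, 261 CPM in HET and 138 CPM in WT cells. Acan (aggrecan) summed to at most 19 counts in any group, and Comp averaged at most 0.887 CPM. Bgn and Dcn, small proteoglycans, gave -6.28 ± 0.17 and -3.57 ± 0.06 for KO against WT at day 14, and -3.48 ± 0.09 and -4.58 ± 0.07 at day 4 (each with an edgeR adjusted p at or below 3.92e-14). Of the related protease lists, 6 of 10 transmembrane ADAM genes were higher and 3 lower in KO than in WT cells at day 14, 7 and 2 at day 4, and 3 and 6 in HET than in WT cells. Of 4 tested of 7 ADAMTS-like genes, which lack the protease domain, 1 was higher and 2 lower in KO at day 14, 3 and 1 at day 4, and 0 and 4 in HET cells. Adamtsl3 was among them, with 0.108 ± 0.0746 CPM in KO and 24.1 ± 0.193 CPM in WT cells at day 4 (-7.72 ± 0.63, edgeR adjusted p = 4.71e-12). Of 6 tested of 11 astacin-type and other metalloproteases, 2 were higher and 2 lower in KO at each day, and 4 higher and 1 lower in HET cells. Bmp1, the procollagen C-proteinase, was lower in KO than in WT cells at day 14 (log2 fold change -1.16 ± 0.06, edgeR adjusted p = 2.97e-10).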

How the data were processed

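Total RNA was sequenced from 15 libraries, 3 in each of 5 groups, made with the TruSeq RNA v2 kit, which does not keep strand. Per the submitters' processing notes, TopHat2 2.1.0 aligned the reads to GRCm38.p4 and HTSeq counted them; no source used here gives the annotation or the counting settings. The authors deposited raw counts per Ensembl gene ID, 1 file per library, and these counts were used unchanged. Symbols, coordinates and exon lengths came from GENCODE M21 (GRCm38), which gave a symbol to 46091 of 46603 IDs; the other 512 held 0.051% of counts. Overlapping and near-identical genes could not be told apart beyond the shares given.

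Groups were fitted together in edgeR 4.0.16 (R 4.3.3) with TMM scaling, filterByExpr and robust quasi-likelihood F tests, with Benjamini-Hochberg adjustment over 15296 genes and a threshold of 0.05. A 2-fold rule was applied beside it. The SE comes from the negative binomial fit and is not set below the counting error. The common biological coefficient of variation was 8.33%. Depth was 19.9 M to 47.5 M counts per library. Groups with no count were set at a floor of 3 counts over the group, and groups with 1 to 3 counts are given as ratios with 95% counting intervals. The procedure was tested on simulated data. Figures were drawn with matplotlib 3.10.9 from tables made with pandas 2.3.3.

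Every Mmp, Adamts and Timp gene was accounted for: those reaching 10 CPM in a group with each library's value, those at 1 to 10 CPM with group means or, where groups were far apart, library values, and those below the filter with their highest summed count. From each companion list up to 4 genes were eligible to be named, those with the smallest adjusted p among rises and falls. Runx2, Vcan, Acan and Comp were named beside these because the text mentions their products. Junb, Fosb and Fos were added so that falls in KO cells at day 14 are shown too. The genes, lists and tests were chosen with earlier results of these data known. Alternatives were DESeq2 1.42.0, RLE factors, library totals alone, 2 other filters, each library left out in turn, the compared groups alone and a block for the replicate number. Replicate numbers did not pair libraries: over 30 pairs of the same number, correlations of deviations from the group mean ran from -0.15 to 0.18, with 1 over 0.1.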

Additional observations from a re-analysis of the deposited data

Results flagged for a closer look

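The gap between KO and WT cells differed between day 14 and day 4 for 27 of the 32 tested genes, by a test of that difference itself, the interaction of genotype and day in edgeR's quasi-likelihood fit. Each value is the KO against WT log2 fold change at day 14 less that at day 4. In the chromosome 9 cluster it was 7.27 for Mmp3, 4.60 for Mmp10, 3.72 for Mmp8, 1.53 for Mmp13 and -1.48 for Mmp27. Mmp12 gave 9.01 and Adamts3 gave 8.28, but these fitted values rest on 1 and 0 counts in KO cells of day 4 and have no firm size.

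Among the gelatinases and membrane-bound enzymes the difference was 2.31 for Mmp2, 1.28 for Mmp14, -2.73 for Mmp9, -2.65 for Mmp16, -4.30 for Mmp17 and -5.23 for Mmp15. Mmp11, Mmp19 and Mmp23 gave -1.23, -0.62 and 0.85. The Mmp23 call was lost under library totals alone (0.65, edgeR adjusted p = 0.0557) and without WT replicate 1 or 2 of day 4 (0.78 and 0.70, edgeR adjusted p = 0.0528 and 0.0677). Of the Adamts genes, Adamts1 gave 5.05, Adamts9 2.20, Adamts6 1.30 and Adamts4 0.80, while Adamts2 gave -3.31, Adamts5 -2.12, Adamts10 -1.07 and Adamts7 -0.34. For Adamts6 the value was 1.93 without WT replicate 1 of day 14, and the call was lost without WT replicate 2 or 3 of day 14 (1.12 and 1.03, edgeR adjusted p = 0.0584 and 0.065). The Adamts7 call was lost without KO replicate 2 or WT replicate 1 of day 14 (-0.30 and -0.23, edgeR adjusted p = 0.0503 and 0.0561). All 3 tested inhibitors moved down relative to WT, with -0.71 for Timp1, -0.63 for Timp2 and -1.64 for Timp3. The interaction missed the threshold for Mmp25, Mmp28, Adamts12, Adamts14 and Adamts20. The cause of these differences was not tested.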

How the results depend on the processing

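Over 7 comparisons and 32 genes, 184 of 224 differences were called, and none of these turned its direction under any alternative. A call was lost in at least 1 setting for 15 of them, 13 when a library was left out and 10 under another setting. The numbers of genes called stayed within 1.5 times the value reported under every alternative. The replicate block ended 2 calls, Adamts3 in KO against WT at day 14 (-0.86, edgeR adjusted p = 0.0529) and Adamts20 between the days in WT (edgeR adjusted p = 0.0597). Library totals alone moved the median of all genes by -0.10 for HET against WT and 0.14 for KO against WT at day 4. The median moved by 0.20 between the days in WT and by -0.20 for the interaction. In that setting HET against WT was split into 14 higher and 16 lower of the 32 genes. Of the called genes, 46.7% were then higher among the 32 and 38.8% among all genes.

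Differences that missed the threshold and changed sign were these. With library totals alone Mmp16 was -0.021 in KO against WT at day 14, Timp1 was -0.091 in HET against WT, and Timp1, Mmp19 and Mmp28 were 0.009, 0.014 and 0.043 in KO against HET. Without a filter Timp1 was 0.017 in KO against WT at day 14. Mmp28 in KO against HET was 0.002 with DESeq2, 0.018 with no filter and 0.017 with the replicate block. With single libraries left out, KO against WT at day 14 ran from -0.113 to 0.059 for Timp1 and from -0.18 to 0.24 for Mmp16, and HET against WT from -0.22 to 0.14 for Timp1. KO against HET ran from -0.16 to 0.19 for Timp1, from -0.021 to 0.053 for Timp2, from -0.21 to 0.15 for Mmp28, from -0.99 to 0.20 for Adamts20, from -0.055 to 0.105 for Adamts5, from -0.11 to 0.02 for Mmp19 and from -0.24 to 0.32 for Adamts6. At day 4, KO against WT ran from -0.073 to 0.471 for Mmp17. Between the days, the range was -0.01 to 0.41 for Mmp16 in WT, and -0.01 to 0.12 for Mmp9 and -3.55 to 0.33 for Mmp25 in KO. The interaction ran from -0.971 to 0.084 for Adamts12. The cause of these changes was not tested. Depth limits Mmp12, Mmp25, Adamts3 and Adamts20, whose lowest groups held 0 to 3 counts. It also limits Mmp8, with 5 counts in KO cells of day 4.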
